A study of Mus musculus with 4 samples.

Results

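The PIM kinases, the GADD45 stress proteins and genes around the tumour suppressor p53 were followed in mouse blood progenitors that had met a prostaglandin and a glucocorticoid in culture. The set was named gene by gene: Pim1, Pim2, Pim3, Gadd45a, Gadd45b, Gadd45g, Trp53, Mdm2 and Ccng1. Of these 9 genes, 8 were measured, among 30142 genes in all, each by the only probe set that the platform annotation ties to its symbol alone. Trp53 is not analysed here. The genes were put together with earlier results of the same comparison in view. Their differences between the treated and the control arrays are therefore given as descriptions. Counts from the test over all genes are printed for them, but nothing is read from these counts.

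The cells were lineage-negative, c-Kit-positive progenitors (LK cells) of NOD mice, a strain that develops autoimmune diabetes. All samples were held in StemSpan medium for 4 h at 37 °C. The vehicle group (2 samples) received DMSO alone, and the combination group (2 samples) received dmPGE2, a stabilised prostaglandin E2, at 10 µM together with the glucocorticoid dexamethasone at 10 µM. No group received 1 drug alone, so the drugs' shares cannot be told apart. The labels used here give no age or sex of the mice and no number pooled per sample. Per the design text the 2 samples of a group are biological duplicates. RNA from each sample was read on 1 whole-transcript array, and every value is a log2 RMA signal, a normalized brightness on which a step of 1 is a doubling. Of the defining progenitor markers, Kit lay between 9.62 and 10.51 and Mpo between 17.63 and 18.13 on the 4 arrays, and 10 of 11 measured markers were above every background probe set on each array. A bulk signal of this kind cannot tell fewer cells of a type from less RNA per cell.

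PIM kinases are serine/threonine kinases without a known regulatory subunit. Their amount is set largely by transcription, downstream of cytokine receptors through JAK and STAT5, and they favour survival and protein synthesis by phosphorylating proteins such as BAD and 4E-BP1. The GADD45 proteins are small acidic stress sensors that bind the kinase MEKK4 upstream of p38 and JNK, and also CDK1 and PCNA. Gadd45a is a p53 target and Gadd45b is induced through NF-kB and TGF-beta. p53 drives Mdm2, the ubiquitin ligase that degrades it, and Ccng1, which encodes cyclin G1.

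The arrays showed lower signals of Pim2 and Gadd45b with the combination, a smaller gap for Pim1, and little difference for Gadd45a, Mdm2 and Ccng1. Of the 8 genes, 7 had a lower mean with the combination, beside 46.8% of all genes. In 4 of them, Pim1, Pim2, Gadd45b and Mdm2, both combination arrays lay below both vehicle arrays, as in 15.4% of all genes. None was higher on both arrays, against 19.7% of all genes. Limma's test with Benjamini-Hochberg adjustment passed 0 of the 8 genes at 0.05. It passed 0.00303% of the 65956 features and 0.00332% of the 30142 genes. At an unadjusted p under 0.05 it took 1 gene, Gadd45b, as it did 2.65% of all genes in this direction. Nothing is read from these counts, since the genes were chosen on this contrast. The lowest value of any of them, 6.20, was above the highest of the 23 background probe sets on any array, 5.55. The shares over all genes, here and below, include dim genes, whose differences RMA compresses. The median of all features was at most 4.44 on any array, and no share over genes of like signal is given here.

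**Figure D1:**
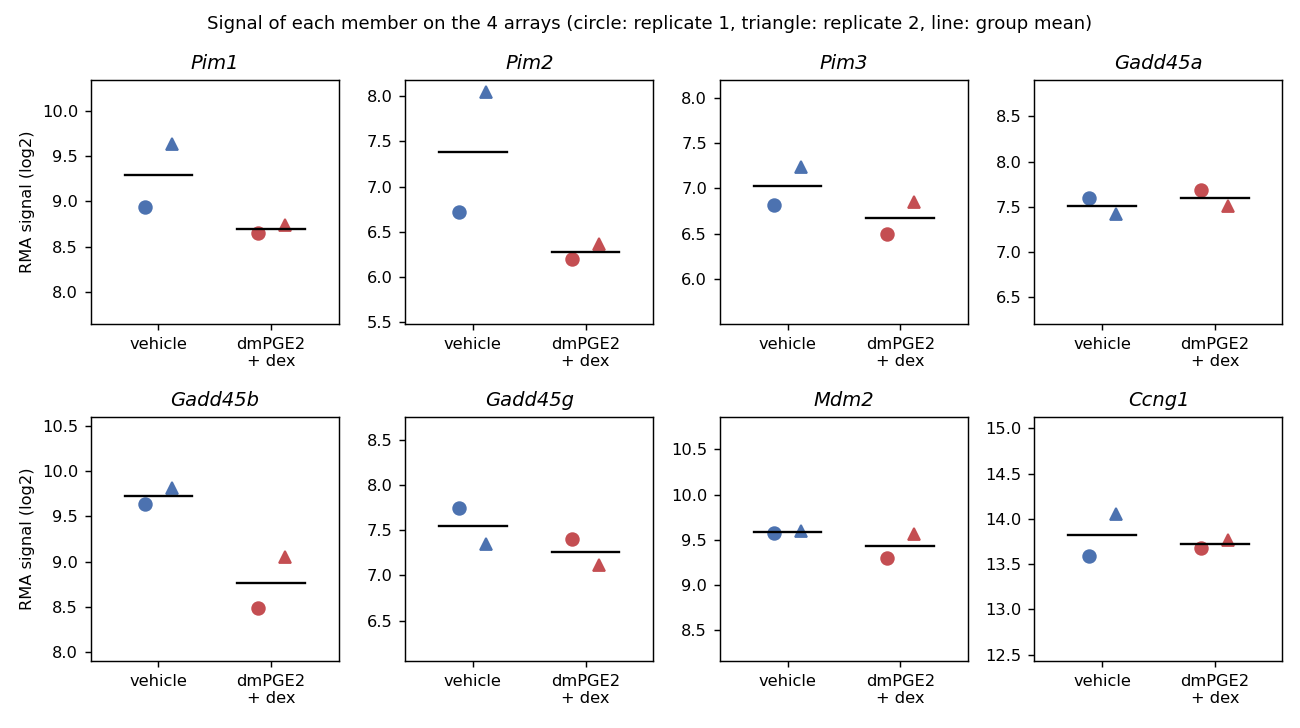
RMA signal (log2, vertical axis) of each gene on the 4 arrays. Circles are replicate 1, triangles replicate 2 and lines the group means. All panels span the same log2 range, so gaps can be compared while levels cannot. The Pim1 and Pim2 panels show 1 high vehicle array, and the Gadd45b panel shows both vehicle arrays above both combination arrays.

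Pim2 encodes the family member best known for sustaining growth and survival of blood cells when mTOR signalling is low. Its signal was 6.72 and 8.04 on vehicle arrays 1 and 2, and 6.20 and 6.37 on combination arrays 1 and 2. Vehicle 2 stood far above the other arrays, and the groups did not overlap, with 0.35 between the nearest arrays. The means were 7.38 ± 0.94 and 6.28 ± 0.12 (SD, n = 2), a log2 difference of -1.10 (SE 0.46) or 2.14-fold. Of all genes, 0.335% differed by as much in this direction. The size rests on 1 array: without vehicle 2 the difference was -0.44 and without vehicle 1 it was -1.76. The 2 vehicle arrays differed by 1.32, more than the groups did. The order of the groups held on every array, and the distance between them was no larger than the spread of the controls.

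Pim1, the founding member of the family and a kinase that also phosphorylates the chemokine receptor CXCR4, had the same shape on a smaller scale. It was at 8.94 and 9.64 with vehicle and at 8.65 and 8.74 with the combination. Vehicle 2 was again the highest array, and 0.20 separated the nearest arrays of the groups. The means of 9.29 ± 0.49 and 8.70 ± 0.06 (SD, n = 2) gave a difference of -0.59 (SE 0.26), 1.51-fold. It was -0.24 without vehicle 2 and -0.94 without vehicle 1.

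Pim3 was at 6.82 and 7.23 with vehicle and at 6.50 and 6.85 with the combination. Combination 2 lay just above vehicle 1, so the groups overlapped. Within each replicate number the combination array was the lower, with differences of -0.32 for number 1 and -0.38 for number 2. The mean difference was -0.35 (SE 0.22), and it was -0.14 without vehicle 2, -0.17 without combination 1, -0.56 without vehicle 1 and -0.53 without combination 2.

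All 3 PIM genes were thus lower with the combination at both replicate numbers. The labels do not say what a number marks, so arrays of the same number are not known to be matched. The share of all genes lower at both numbers is not given here. For Pim1 the difference was -0.29 at number 1 and -0.90 at number 2, and for Pim2 it was -0.52 and -1.68. The family's median difference was -0.59, against 0.01 over all genes. Each PIM gene was also higher on array 2 than on array 1 of its group. On the vehicle arrays the distance was 0.70 for Pim1, 1.32 for Pim2 and 0.41 for Pim3, and on the combination arrays it was 0.09, 0.17 and 0.36. Over all genes the median gap between the vehicle arrays was 0.02 with an SD of 0.38, and 0.176% of genes were higher on vehicle 2 by at least the gap of Pim2.

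**Figure D2:**
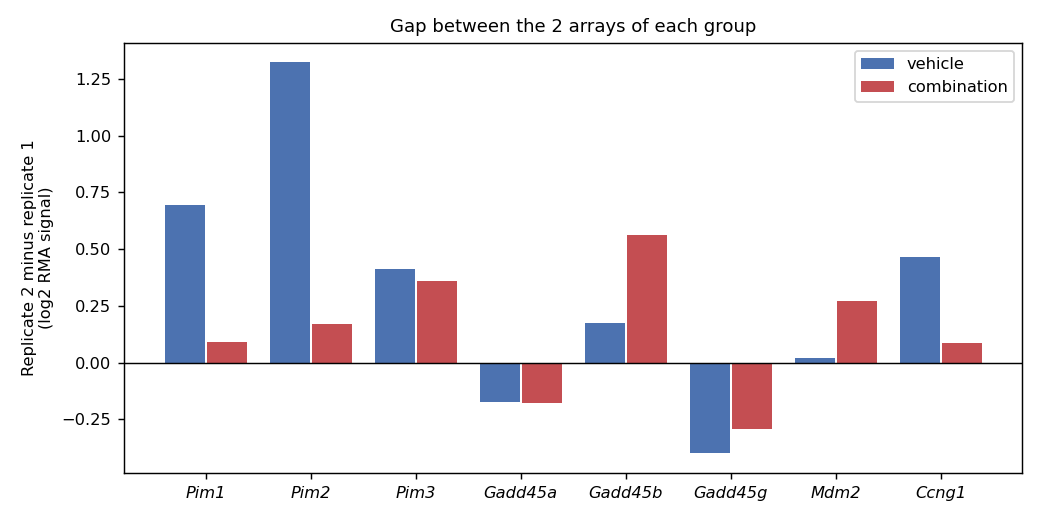
Replicate 2 minus replicate 1 (log2 RMA signal) within the vehicle group and within the combination group, for each gene. The bars of Pim1 and Pim2 are tall for vehicle and short for the combination, whereas Gadd45a and Gadd45g have negative bars of similar size in both groups.

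Cell type markers differed with the replicate number, with the treatment, or with both. Of 10 measured markers of mature neutrophils, a cell type that a lineage depletion should remove, 9 were lower on array 2 than on array 1 in both groups. Their summed linear signal was 93310 on vehicle 1 and 20460 on vehicle 2, and 103900 and 41200 on the combination arrays. Such a sum is weighted to its brightest markers and is no measure of cell number. On these arrays 9, 6, 9 and 8 of the 10 were above every background probe set. Camp, a late granule gene, was at 13.51 and 7.63 with vehicle and at 12.80 and 8.41 with the combination. The exception was Cxcr2, a chemokine receptor gene, at 9.06 and 8.87 with vehicle and at 12.75 and 13.83 with the combination. All 10 also had a higher mean with the combination, by a median of 0.39, while 46.8% of all genes had a lower mean. In Cxcr2 (4.32) and Mmp8 (2.43) both combination arrays lay above both vehicle arrays, as in 19.7% of all genes. Of 4 measured erythroid markers, 3 were lower on array 2 in both groups, whereas Slc4a1, an anion exchanger of red cells, was higher there, at 10.79 and 11.77 with vehicle and at 9.75 and 11.41 with the combination. The summed erythroid signals were 19550 and 8881 with vehicle and 15570 and 8355 with the combination. Other lists went the other way, as the PIM genes did. Higher on array 2 in both groups were 8 of 11 progenitor, 6 of 10 monocyte and macrophage and 4 of 5 megakaryocyte markers. Lower there in both groups were 0, 2 and 0 of them. The progenitor marker Flt3 was at 5.92 and 7.25 with vehicle and at 6.01 and 6.71 with the combination. The share of all genes is not given here.

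Monocyte and macrophage markers differed between the groups in both directions, and the F13a1 difference, with the smallest p among them, missed the threshold (limma adjusted p = 0.094). Of 10 measured, 5 were higher and 3 lower on both combination arrays, beside 19.7% and 15.4% of all genes. The summed signal of the 10 was 3586 and 5197 with vehicle and 6892 and 8509 with the combination. Vcan and F13a1 differed by 3.29 and 2.92, and Ccr2, Csf1r and Adgre1 by -1.77, -0.91 and -0.56. Csf1r, the receptor of a macrophage growth factor, was at 9.12 and 9.77 with vehicle and at 8.39 and 8.67 with the combination. Vehicle 2 was its highest array, as in Pim1, Pim2, Mpo and Cd48, and the share of all genes is not given here. Of 6 measured dendritic cell markers, 2 were higher and 2 lower on both combination arrays, and 3 had a higher and 3 a lower mean. Their summed signal was 636 and 778.2 with vehicle and 319.7 and 346.8 with the combination. That sum is weighted to Cd209a, at 8.71 and 8.92 with vehicle and at 6.62 and 6.51 with the combination, a difference of -2.25. Of the 11 progenitor markers, 10 had a lower mean with the combination, beside 46.8% of all genes. In 4, with Cd48 at -0.94, both combination arrays lay below both vehicle arrays, as in 15.4% of all genes. The summed signal of all 11, weighted to Mpo, was 281600 and 338400 with vehicle and 238200 and 287700 with the combination. Of 7 measured mast cell and basophil markers, 6 had a lower mean and 3 were lower on both combination arrays. Among 5 megakaryocyte markers, 3 had a higher and 2 a lower mean, with Ppbp at 5.52. In the 6 B cell markers and in the 8 T and NK cell markers, 1 each was above every background probe set. The part of these cell types in the PIM and GADD45 values was not tested. The genes named here were picked after their values were seen.

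Gadd45b, an early stress and cytokine response gene, had the clearest separation of the set. Its signal was 9.64 and 9.82 on the vehicle arrays and 8.48 and 9.05 on the combination arrays. Both vehicle arrays were close together, both combination arrays were lower, and 0.59 separated the nearest arrays. The means of 9.73 ± 0.12 and 8.77 ± 0.40 (SD, n = 2) differed by -0.96 (SE 0.23), 1.95-fold. Of all genes, 0.471% differed by as much in this direction. The difference was -1.16 at replicate number 1 and -0.77 at number 2. Leaving out any 1 array kept it between -1.24 and -0.68, a narrower span than that of Pim2.

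Gadd45a, the member that p53 induces after DNA damage, was at 7.59 and 7.42 with vehicle and at 7.69 and 7.51 with the combination. The groups overlapped, and the difference of 0.09 (SE 0.15) was smaller than the gap of 0.17 between the vehicle arrays. It was 0.0047 without combination 1 and 0.0070 without vehicle 2, against 0.18 without combination 2 and 0.18 without vehicle 1. Gadd45g, the member induced by cytokines and during differentiation, was at 7.74 and 7.34 with vehicle and at 7.40 and 7.11 with the combination. Its groups overlapped as well, with a difference of -0.28 (SE 0.21). That difference was -0.08 without vehicle 1, -0.48 without vehicle 2, -0.43 without combination 1 and -0.14 without combination 2. Both genes were lower on array 2 than on array 1 in each group, whereas the PIM genes, Gadd45b, Mdm2 and Ccng1 were higher there.

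**Figure D3:**
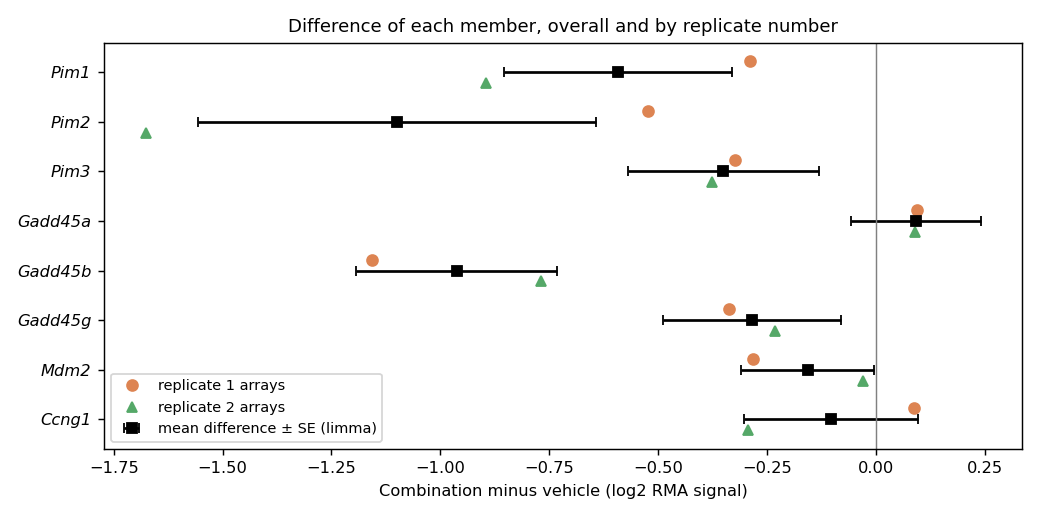
Combination minus vehicle (log2 RMA signal) for each gene. Squares with bars are the mean difference with limma's SE over all 4 arrays, circles the difference between the replicate 1 arrays and triangles that between the replicate 2 arrays. Gadd45b lies near -1 at both numbers, Pim2 is spread from -0.52 to -1.68, and Gadd45a sits near 0.

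The promoters of the 2 genes with the largest differences are shown with those of the other GADD45 genes, because the 3 relatives differ in their values and in the short motifs before their starts. The windows are the 250 bases before the RefSeq start in assembly GRCm38.p6, written 5′ to 3′ on the gene's strand. They are chrX:7878056-7878305 (plus strand) for Pim2, chr10:80929841-80930090 (plus) for Gadd45b, chr6:67037408-67037657 (minus) for Gadd45a and chr13:51846425-51846674 (plus) for Gadd45g. Capitals mark the octamer ATGCAAAT, the E-box CACGTG, the CCAAT box and the TATA box TATAAA, each searched on both strands.
Pim2: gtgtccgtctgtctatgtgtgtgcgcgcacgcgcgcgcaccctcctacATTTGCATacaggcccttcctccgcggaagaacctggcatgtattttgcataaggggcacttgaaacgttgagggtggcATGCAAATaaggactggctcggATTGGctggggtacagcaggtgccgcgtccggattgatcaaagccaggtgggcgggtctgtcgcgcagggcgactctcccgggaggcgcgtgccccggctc
Gadd45b: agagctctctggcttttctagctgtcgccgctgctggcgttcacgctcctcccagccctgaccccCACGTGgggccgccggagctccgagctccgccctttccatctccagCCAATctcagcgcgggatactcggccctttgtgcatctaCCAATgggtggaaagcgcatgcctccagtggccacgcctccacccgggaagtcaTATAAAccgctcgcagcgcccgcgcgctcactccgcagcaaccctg
Gadd45a: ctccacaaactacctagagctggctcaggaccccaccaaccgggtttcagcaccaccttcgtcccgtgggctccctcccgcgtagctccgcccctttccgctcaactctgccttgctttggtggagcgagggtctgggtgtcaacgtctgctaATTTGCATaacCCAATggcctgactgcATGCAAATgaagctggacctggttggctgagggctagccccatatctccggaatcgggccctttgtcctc
Gadd45g: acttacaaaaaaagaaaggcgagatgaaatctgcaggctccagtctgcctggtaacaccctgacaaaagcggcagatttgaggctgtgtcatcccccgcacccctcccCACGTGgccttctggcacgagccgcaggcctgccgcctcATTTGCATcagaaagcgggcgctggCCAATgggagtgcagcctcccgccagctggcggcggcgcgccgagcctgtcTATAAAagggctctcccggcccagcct

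The octamer, a binding sequence of POU factors such as OCT1, was found at 202 and 123 bases before the start of Pim2, at 97 and 70 bases in Gadd45a and at 103 bases in Gadd45g. It was not found in the Gadd45b window. Of all 32851 promoters of the same length in the RefSeq table, 1.6% hold it. The E-box was found 185 bases before the start of Gadd45b and 142 bases before that of Gadd45g, and 6.02% of promoters hold it. Gadd45b and Gadd45g also had a TATA box, at 46 and 27 bases, as 12.4% of promoters do. The CCAAT box, present in 33.8% of promoters, was found in all 4 windows. The cAMP response element TGACGTCA (1.55% of promoters), its core TGACG (17.8%), the STAT motif TTCNNNGAA (7.02%), the glucocorticoid receptor core TGTTCT (16.1%) and the NF-kB consensus (3.9%) had no match in any of the 9 windows tied to the 8 genes. The core TGACG lies within the full cAMP element. The p53 decamer consensus, held by 7.13% of promoters, matched once in the windows of Gadd45a, Mdm2 and Ccng1 and in 1 of the 2 windows of Pim1. These motifs were chosen with the values and the sequences in view, and a match or its lack says nothing here about a factor. The octamer was in windows of genes with the largest and the smallest differences alike.

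Mdm2 and Ccng1, p53 targets like Gadd45a, differed little. Mdm2 was at 9.58 and 9.59 with vehicle and at 9.29 and 9.56 with the combination. Its groups did not overlap, yet only 0.01 separated vehicle 1 from combination 2. The difference of -0.16 (SE 0.15) was -0.02 without combination 1 and -0.29 without combination 2. Ccng1 was at 13.59 and 14.06 with vehicle and at 13.68 and 13.77 with the combination. The combination arrays lay between the vehicle arrays, the mean difference was -0.10 (SE 0.20), and it turned to 0.13 without vehicle 2 and was -0.34 without vehicle 1 and -0.06 without combination 1.

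Beyond these genes, 122 of 134 listed genes of the p53, PIM, GADD45 and cyclin G pathways were measured. Limma's adjusted p passed 0.05 for 0 of them. At an unadjusted p under 0.05 in limma, 5 were higher and 7 lower with the combination, 9.84% of them beside 5.31% of all genes (802 higher and 798 lower). With each array centred on its median that split over all genes was 603 higher and 1111 lower, and over the listed genes it was 3 and 7. The 5 higher genes became 2 without vehicle 1, 2 without vehicle 2, 8 without combination 1 and 1 without combination 2. The lists were written with earlier results in view, and genes are named by limma's unadjusted p, 2 per list.

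**Figure D4:**
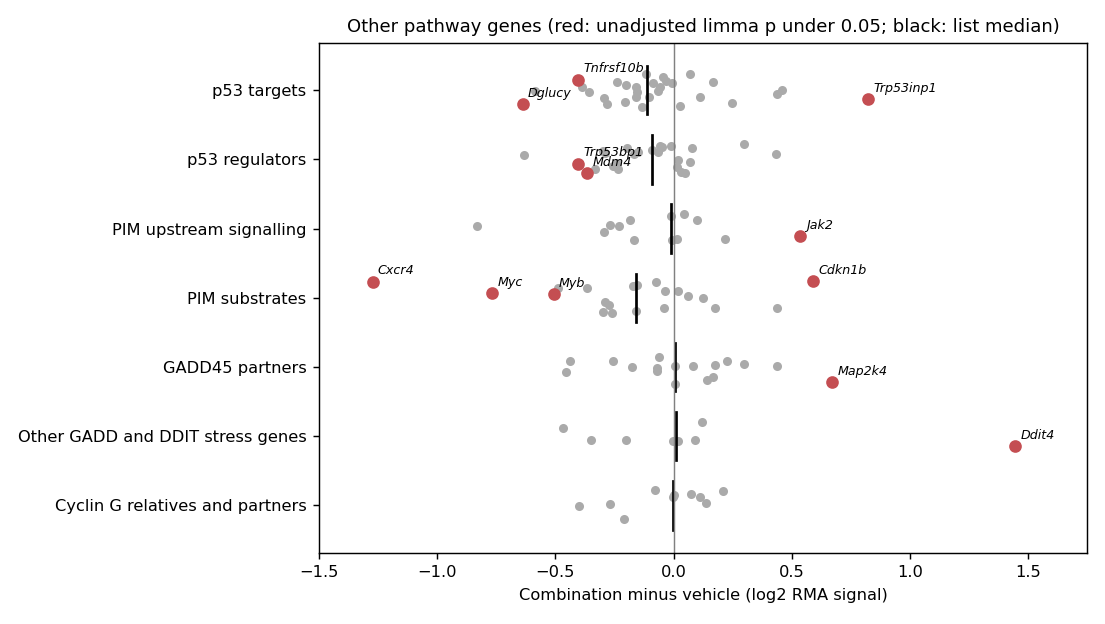
Combination minus vehicle (log2 RMA signal) of every measured gene in the 7 pathway lists. Each point is a gene, red points have an unadjusted limma p under 0.05, and black bars are list medians. The medians lie between -0.16 and 0.01, and Cxcr4 and Ddit4 stand at the 2 ends.

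Among 30 measured p53 targets, 8 had a higher and 22 a lower mean with the combination, and the median difference was -0.11, beside 46.8% lower and a median of 0.01 over all genes. At an unadjusted p under 0.05 in limma 1 was higher and 2 were lower, beside 2.66% and 2.65% of all genes. Trp53inp1, which encodes a p53-induced nuclear protein with a role in autophagy, was at 6.39 and 6.87 with vehicle and at 7.28 and 7.62 with the combination. Both combination arrays were the higher, by 0.82 (SE 0.23) on average, and limma's adjusted p was 0.80. Dglucy was at 6.50 and 6.84 against 5.93 and 6.13, a difference of -0.64 (SE 0.18) with the same adjusted p of 0.80 in limma. Cdkn1a, which encodes the CDK inhibitor p21 and is the best known p53 target, was named after its values were seen. It was at 13.92 and 14.30 with vehicle and at 14.09 and 15.00 with the combination, so its groups overlapped.

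Among 25 measured regulators of p53, 8 had a higher and 17 a lower mean, with a median of -0.09. Of all genes, 46.8% had a lower mean. At limma's unadjusted p under 0.05, 0 were higher and 2 lower, beside 2.66% and 2.65% of all genes. Mdm4, the partner of Mdm2 that masks the activation domain of p53, was at 9.16 and 9.25 with vehicle and at 8.85 and 8.83 with the combination. The arrays within each group were close, and the difference was -0.37 (SE 0.13, limma adjusted p = 0.88). Trp53bp1, which encodes a DNA repair protein that binds p53, was at 7.57 and 7.56 against 7.11 and 7.21, a difference of -0.41 (SE 0.13, limma adjusted p = 0.84). Both gaps were larger than the spread within a group.

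Upstream of the PIM genes, 13 of 18 listed receptors, kinases, STAT factors and STAT5 targets were measured. At limma's unadjusted p under 0.05, 1 was higher and 0 lower, beside 2.66% and 2.65% of all genes, and the median was -0.01. Jak2, the kinase that couples many blood cytokine receptors to STAT5, was at 10.48 and 10.55 with vehicle and at 10.84 and 11.26 with the combination. The difference of 0.54 (SE 0.19, limma adjusted p = 0.87) was 0.33 without combination 2. Csf3r, the G-CSF receptor, was at 8.45 and 9.45 against 7.91 and 8.33. Vehicle 2 was its highest array, as for the PIM genes and for other listed genes such as Dglucy, Runx1 and Myb. The share of all genes with that order is not given here. The Csf3r difference of -0.83 (SE 0.38, limma adjusted p = 0.92) was -0.33 without vehicle 2 and -1.33 without vehicle 1. Stat5a and Stat5b, named after their values were seen, differed by -0.29 and -0.17 with overlapping groups. Cish, a STAT5 target chosen in the same way, was at 10.49 and 11.08 with vehicle and at 10.24 and 11.41 with the combination, so its widest gap was between the combination arrays.

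Of 21 measured PIM substrates, 6 had a higher and 15 a lower mean, with a median of -0.16, while 46.8% of all genes had a lower mean. At limma's unadjusted p under 0.05, 1 was higher and 3 were lower, beside 2.66% and 2.65% of all genes. Cxcr4, the receptor that holds progenitors in the marrow, was at 11.56 and 11.48 with vehicle and at 10.15 and 10.35 with the combination. Its difference of -1.27 (SE 0.14) was larger than the spread within either group, and limma's adjusted p was 0.30. Myc, whose protein PIM kinases stabilise, was at 12.09 and 11.75 against 11.31 and 11.00, a difference of -0.77 (SE 0.20, limma adjusted p = 0.78). The other lower gene was Myb, at -0.51, and the higher one was Cdkn1b, which encodes the CDK inhibitor p27, at 0.59.

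Of 17 measured GADD45 partners, 1 was higher and 0 lower at limma's unadjusted p under 0.05, beside 2.66% and 2.65% of all genes. Their median was 0.01. Map2k4, a kinase that activates JNK, was at 10.37 and 9.92 with vehicle and at 10.62 and 11.00 with the combination. Its difference of 0.67 (SE 0.23, limma adjusted p = 0.87) was 0.44 without vehicle 2. Mapkapk2, a kinase downstream of p38, was at 13.23 and 13.73 against 12.84 and 13.25, with overlapping groups and a difference of -0.44 (SE 0.25, limma adjusted p = 0.94). That difference was -0.18 without vehicle 2, -0.23 without combination 1, and -0.69 without vehicle 1.

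Next came 8 other genes of the growth arrest and DNA damage naming series and their regulators. At limma's unadjusted p under 0.05, 1 was higher and 0 lower, beside 2.66% and 2.65% of all genes. Ddit4, an inhibitor of mTOR also known as a glucocorticoid target, was at 6.13 and 5.74 with vehicle and at 7.72 and 7.03 with the combination. All its combination values were above the vehicle values, by 1.44 (SE 0.29) on average, and limma's adjusted p was 0.59. Ddit3, which encodes the stress factor CHOP, was at 10.73 and 11.29 against 10.50 and 10.58, a difference of -0.47 (SE 0.22, limma adjusted p = 0.92) that was -0.19 without vehicle 2 and -0.75 without vehicle 1. In the 10 measured relatives and partners of cyclin G, 0 genes were past the unadjusted p in either direction in limma. Ppp2r5d and Ppp2r5c, which encode regulatory subunits of the phosphatase PP2A, differed by -0.40 and -0.21. For Ppp2r5d the difference was -0.14 without combination 1 and -0.66 without combination 2.

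Other genes were compared with Pim2 and with Gadd45a, the genes of the set with the largest negative and the only positive difference, by the Euclidean distance between the 4 array values after centring each gene on its mean. Among 18812 other protein-coding genes, the nearest to Pim2 were 1700025G04Rik at a distance of 0.29, the chemokine gene Ccl24 at 0.38 and the plexin gene Plxnb2 at 0.39. Their vehicle 2 values were the highest of the 4 arrays, at 7.50, 7.58 and 7.21, as in Pim2, which follows from how they were chosen. Pim1 came at rank 59, Gadd45b at 187 and Pim3 at 406 in the same order. Farther off were Ccng1 at 1225, Mdm2 at 3442, Gadd45g at 11006 and Gadd45a at 14996. The nearest to Gadd45a were Prpf38a (0.0077), Crygc (0.028) and Bzw1 (0.030), of which Crygc lay within the range of background probe sets. With 4 arrays such likeness is a description of these samples.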

How the data were processed

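The authors deposited log2 signals of 4 arrays. Per the submitters' processing notes, RMA and the Transcriptome Analysis Console were used. Neither their versions nor a genome build is given in the sources used here. RMA pulls the arrays towards 1 distribution and compresses low signals, so a change of total RNA is not visible and folds of dim genes are understated. Precision is limited by the 2 arrays in each group, since arrays have no depth of reads. Array medians lay between 4.36 and 4.44.

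Of 72688 rows, 6732 control rows were left out. Of the 65956 features left, 30604 had 1 distinct gene symbol and 2146 several, and the last stayed unnamed. Symbols were updated through Entrez identifiers with the RefSeq table of GRCm38.p6. The feature with the highest mean stood for each of 355 genes with more than 1. All 8 genes matched a promoter entry of the RefSeq table.

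The test was limma's moderated test (limma 3.58.1, R 4.3.3), two-sided, with group as the only term, over all features, with Benjamini-Hochberg adjustment and a threshold of 0.05. An exact permutation test of 2 against 2 arrays cannot go below p = 0.333. There were 2 residual degrees of freedom, beside 2.59 from the prior. In 5 simulations with 65956 features, independent normal noise was drawn from limma's fitted prior, without a replicate effect, and 200 features were changed. The fit called 0% of features changed by 1 on the log2 scale, 40% by 2 and 83.6% by 3, with 6.2 false calls on average. These rates belong to that noise and were not measured on the real arrays. The members and lists were chosen with earlier results of these data known. Genes named were all members, then per list up to 4 past the threshold or else the 2 with the smallest p, then the 3 nearest in profile to the members with the largest positive and negative differences. The fit was repeated with an intensity trend, a robust prior, the replicate number as a block, filters on dim features, a second quantile normalization, centring, control rows kept, each array left out, and an unadjusted p under 0.05 with a 2-fold difference.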

Additional observations from a re-analysis of the deposited data

How the results depend on the processing

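The count of features past limma's threshold was 2. It was 0 with control rows kept, above the 25th percentile of signal, above the median of signal, with an intensity trend, after a second quantile normalization and without any 1 array, and 716 at an unadjusted p under 0.05 with a 2-fold difference. By Benjamini-Hochberg no listed pathway gene passed under any setting, and 2, Cxcr4 and Ddit4, passed the unadjusted p with a 2-fold difference, a count added after seeing the data. The listed genes higher at the unadjusted p were 5, against 3 with centred arrays, 2 with an intensity trend and between 1 and 8 without 1 array. The lower ones were 7, against 4 above the median and 3 with the trend. Over all genes 802 were higher and 798 lower, against 493 and 516 above the median of signal, and the higher ones ranged from 520 (without vehicle 1) to 1041 without 1 array. The count of members at the unadjusted p was 1, Gadd45b, beside 798 lower genes in all, and nothing is read from it. Without vehicle 2 the differences of Pim1 and Pim2 were -0.24 and -0.44. Without vehicle 1 they were -0.94 and -1.76. In each fit without 1 array a group holds 1 array, whose spread is taken from the other group. The cause of these moves was not tested.

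The labels share the replicate numbers 1 and 2 between groups without saying what a number marks. The gaps between arrays 2 and 1 correlated at r = 0.33 between the groups over 65956 features, which are not independent. With the replicate number as a block, 19 features passed. At limma's unadjusted p, 12 listed genes were then lower and 6 higher, and of all genes 1212 were lower and 1113 higher. Of the members, 3 were lower at that p (Pim1, Pim2 and Gadd45b). Of 96 member values under alternatives, 1 turned sign, that of Ccng1 without vehicle 2. Every member had 1 probe set, so averaging probe sets changes nothing.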
